A study of Mus musculus with 47 samples.

Results

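Estrus was compared with proestrus in the mouse hypothalamus, using the 3 estrus and the 3 proestrus libraries of that region, 6 of the 47 libraries analysed. The libraries were chosen by their labelled region and stage alone, and no measured value entered the choice. The study sequenced messenger RNA from the hypothalamus, hippocampus, neocortex and cerebellum at proestrus, estrus, metestrus and diestrus, and its title names the stability of the transcriptome over the cycle as the question. Every animal was an adult female C57BL/6J mouse, an inbred strain without transgenes, was not treated and was housed under a 12 h light and 12 h dark cycle. Each library came from the whole hypothalamus of both sides of the brain of 1 animal, so it mixes all hypothalamic nuclei and any border tissue taken with them. The proestrus mice were all 91 days old and the estrus mice all 90 days old, so age and stage cannot be told apart in these 6 libraries. Values are read counts scaled to library size as CPM with TMM factors, and differences are log2 estrus minus proestrus from edgeR.

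In rodents, proestrus is the stage when estradiol from ripening follicles reaches its peak and the hypothalamus releases the surge of gonadotropin-releasing hormone that leads to ovulation. At estrus the animal has ovulated and estradiol has dropped. Estradiol and progesterone act on hypothalamic neurons through nuclear receptors, and the same nuclei hold the peptide neurons that govern feeding, water balance, arousal and mating. Genes such as Fos are switched on within minutes of neuronal firing and serve as markers of recent activity. The tissue also holds glia, among them oligodendrocytes, which form myelin, astrocytes, and tanycytes, which line the third ventricle.

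No gene was called between the 2 stages. Of 15230 genes tested, 0% passed an adjusted p of 0.05 by edgeR, and the smallest adjusted p was 1. At an unadjusted p under 0.05, 322 genes were higher in estrus, 2.11% of those tested, and 255 were lower, 1.67%. These 577 genes were fewer than the 761.5 that uniform p-values would give. All 3 estrus libraries lay above all 3 proestrus libraries in 4.41% of genes and below them in 5.28%, and the log2 difference was above 0 in 49.7% of genes. The median log2 difference over all genes was -0.001, its median size was 0.12, and 95% of genes differed by less than 0.59. The 95% interval from limma voom lay within a 2-fold change in either direction for 12565 genes, 82.5% of those tested. The count of called genes stayed at 0 in 17 of 18 other analyses, which included DESeq2, and was 88 when genes of low count were kept in the fit.

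The 6 libraries held 1826368 to 8264980 counts, and the shallowest was estrus replicate 3. That library also stood apart from the other 11 of the hypothalamus on the first principal component, at 65.9 against -17.0 to 16.7. Its counts held 13.5% Lars2, a mitochondrial aminoacyl-tRNA synthetase gene, against 1.34 to 8.18% in the other 5 libraries, and 8.23% small and structural RNA against 0.54 to 4.24%. The summed level of 13 striatal neuron markers was 984 CPM in it, against 404 to 459 CPM in the other 5. For example, Ppp1r1b, which encodes the striatal phosphoprotein DARPP-32, stood at 146 CPM in estrus replicate 3 and at 15.95 to 22.8 CPM in the other 5 libraries. The mean log2 level of cortical and hippocampal neuron markers, centred on all hypothalamus libraries, was also highest in that library. It was 0.80 in estrus replicate 3 and -0.19 to 0.04 in the other 11. The hypothalamic peptide genes Avp and Pmch were present in all 6 libraries, with Avp between 181 and 280 CPM and Pmch between 89.3 and 262 CPM. Other genes of the region given below, such as Hcrt and Foxb1, were more uneven, and Gnrh1 was near the floor. The pituitary hormone genes Prl and Gh had no count in any of the 6. No label gives the lane of a library, and nothing but the separate titles says that the 3 animals of a stage were handled apart.

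Transcription factor genes of the early response to neuronal activity were mostly at higher levels in the estrus libraries, although none passed the adjusted test. Of 22 such genes, 21 passed the filter on low counts and Atf3 did not. The log2 difference was above 0 in 18 of the 21 and below 0 in 3, with a median of 0.53 against -0.001 over all genes. At an unadjusted p under 0.05, 8 of the 21 were higher, against 2.11% of all genes, and 0 were lower, against 1.67%. In 4 of the 21, Fosl2, Egr1, Fosb and Egr2, all estrus libraries lay above all proestrus libraries, against the 4.41% of all genes given above. The summed level of the 22 genes was 360 to 468 CPM in proestrus and 531 to 559 CPM in estrus, so the summed ranges did not overlap. The members respond to the same stimuli and share their libraries, so they are not independent of each other. This list and those below were chosen with earlier results of these data known. The shares over all genes set beside them are therefore descriptive and are not a test of a list.

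The upstream sequence of the 4 members with the smallest p whose sequence may be shown, Fos, Nr4a1, Btg2 and Junb, is given because CREB, which binds the cyclic AMP response element TGACGTCA and its shorter core TGACG, is a known activator of these genes. Each is 250 bases that end just before the RefSeq start in GRCm38.p6, written along the gene's own strand. Capitals mark TGACGTCA or, outside it, TGACG and its reverse complement CGTCA.
Fos, chr12:85473640-85473889, plus strand: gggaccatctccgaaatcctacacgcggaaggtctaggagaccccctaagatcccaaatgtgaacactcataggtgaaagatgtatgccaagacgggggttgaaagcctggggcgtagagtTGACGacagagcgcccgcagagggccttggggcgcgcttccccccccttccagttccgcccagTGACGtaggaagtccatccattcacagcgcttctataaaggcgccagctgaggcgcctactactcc
Nr4a1, chr15:101266596-101266845, plus strand: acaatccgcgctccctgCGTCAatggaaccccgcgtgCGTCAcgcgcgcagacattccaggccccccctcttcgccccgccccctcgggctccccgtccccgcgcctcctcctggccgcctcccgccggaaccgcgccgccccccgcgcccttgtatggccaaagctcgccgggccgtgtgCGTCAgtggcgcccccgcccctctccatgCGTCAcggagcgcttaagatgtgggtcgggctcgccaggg
Btg2, chr1:134079156-134079405, minus strand: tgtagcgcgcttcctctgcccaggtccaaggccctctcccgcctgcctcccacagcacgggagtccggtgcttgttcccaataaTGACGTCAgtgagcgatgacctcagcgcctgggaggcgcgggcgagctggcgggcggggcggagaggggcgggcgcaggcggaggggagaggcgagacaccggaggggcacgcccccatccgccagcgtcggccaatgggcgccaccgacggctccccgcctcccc
Junb, chr8:84978749-84978998, minus strand: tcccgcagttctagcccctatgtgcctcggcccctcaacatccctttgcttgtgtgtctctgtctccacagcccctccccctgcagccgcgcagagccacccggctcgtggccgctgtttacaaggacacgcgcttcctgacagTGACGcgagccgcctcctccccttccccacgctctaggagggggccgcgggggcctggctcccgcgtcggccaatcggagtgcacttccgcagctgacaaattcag
The Btg2 window holds the full element, which starts 166 bases before the gene's start. The Fos window holds TGACG at 129 and 66 bases before the start, the Nr4a1 window holds 4 copies of the core, and the Junb window holds 1 at 106 bases. Searched on both strands, the core was present in 11 of the 17 activity factor genes with a window, against 17.8% of 32851 RefSeq windows of this length. The full element was present in 1 of the 17, against 1.55% of windows, and both matches to the core in the Btg2 window lie inside it. The CArG box, the site of serum response factor, was in 0 of the 17 windows and in 1.47% of all windows, which says nothing of sites further upstream.

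Fos encodes a subunit of the AP-1 transcription factor and is the usual marker of recent neuronal firing. It stood at 16.2, 19.9 and 6.37 CPM in proestrus replicates 1 to 3 and at 33.3, 26.4 and 14.8 CPM in estrus replicates 1 to 3. The lowest estrus library was below both higher proestrus libraries, so the groups overlapped, and proestrus replicate 3 was the lowest of the 6. The log2 difference was 1.03, a 2.05-fold ratio, with an unadjusted p of 0.00875 and an adjusted p of 1 by edgeR.

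Junb and Fosl2 encode the other AP-1 members that stood out. Junb was at 22.8, 15.96 and 13.6 CPM in proestrus and at 34.7, 27.2 and 21.3 CPM in estrus, a log2 difference of 0.72 (unadjusted p = 0.0158, edgeR). Only the highest proestrus library and the lowest estrus library overlapped. Fosl2 was at 25.2, 32.3 and 15.7 CPM in proestrus and at 36.1, 36.1 and 34.5 CPM in estrus, a log2 difference of 0.63 (unadjusted p = 0.0174, edgeR). Its estrus libraries were close together, and the spread lay in proestrus. Fosb, whose protein also joins AP-1, was at 1.54 to 3.80 CPM in proestrus and 4.10 to 10.6 CPM in estrus, without overlap and with an unadjusted p of 0.0571 by edgeR.

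Egr1 encodes a zinc-finger factor induced by growth factors and synaptic input. It stood at 42.8, 57.6 and 20.3 CPM in proestrus and at 69.1, 64.5 and 69.8 CPM in estrus, a log2 difference of 0.84 (unadjusted p = 0.0193, edgeR). All estrus libraries were above all proestrus libraries, and the lowest value was again that of proestrus replicate 3. Nr4a1, an orphan nuclear receptor, stood at 16.7, 22.6 and 8.93 CPM in proestrus and 31.9, 36.4 and 11.5 CPM in estrus, with a log2 difference of 0.98 (unadjusted p = 0.0106, edgeR). Btg2, an antiproliferative cofactor, stood at 12.6, 13.2 and 10.3 CPM in proestrus and 19.5, 23.7 and 9.85 CPM in estrus, with a log2 difference of 0.70 (unadjusted p = 0.0127, edgeR). In both genes estrus replicate 3 lay within or below the proestrus range while the other two estrus libraries lay above it. Npas4, a factor that neurons induce after calcium entry, was at 4.83, 8.95 and 10.1 CPM in proestrus and at 13.1, 9.72 and 5.74 CPM in estrus, so its groups overlapped (log2 difference 0.34, unadjusted p = 0.316, edgeR).

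**Figure D1:**
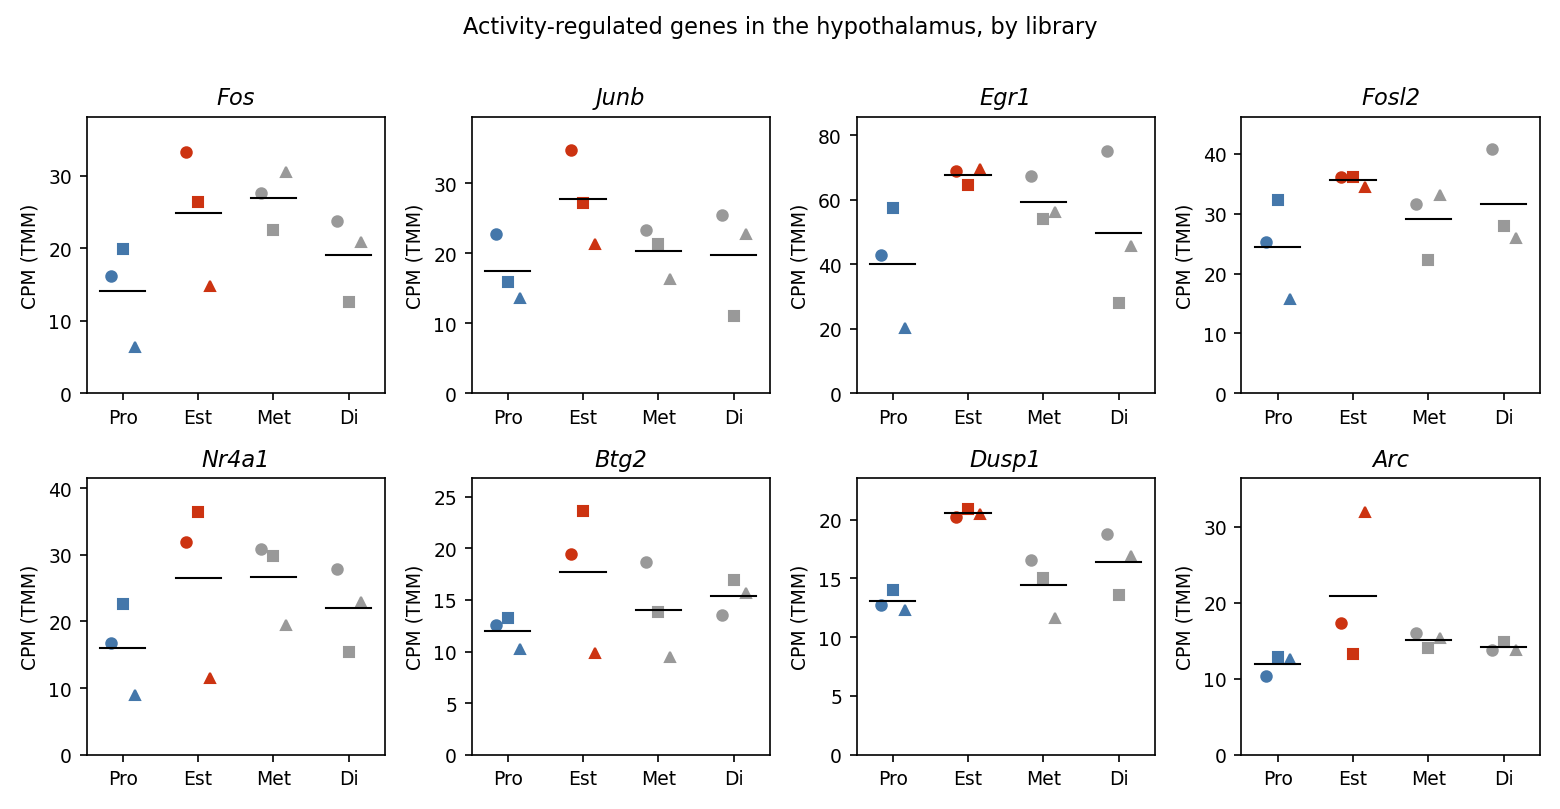
Levels of 8 activity-regulated genes in each hypothalamus library, in CPM after TMM scaling on axes from 0, by stage (Pro, proestrus; Est, estrus; Met, metestrus; Di, diestrus). Circles, squares and triangles are replicates 1, 2 and 3, black lines are means of 3 libraries, and blue marks proestrus and red estrus; the red points of Egr1, Fosl2, Dusp1 and Arc lie above all blue points, while the grey points of metestrus and diestrus overlap both colours except in Dusp1, where none reaches the red points at 20.2 to 20.9 CPM.

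The other stages put these levels in context. The mean log2 level of the 21 genes, centred on all 12 hypothalamus libraries, was -0.11, -0.13 and -0.50 in proestrus and 0.17, 0.28 and 0.16 in estrus. It was 0.35, -0.12 and -0.19 in metestrus and 0.43, -0.39 and 0.05 in diestrus. The estrus libraries lay within the range of the metestrus and diestrus libraries, and only proestrus replicate 3 lay below it. The median of the 21 log2 differences was 0.36 without estrus replicate 3 and proestrus replicate 3, an analysis added after the data were seen, and 4 members then kept an unadjusted p under 0.05. Without proestrus replicate 3 alone, 1 member did. With age in days as a covariate, the median was 0.32 and 1 member did. The age slope of that fit rests on metestrus and diestrus alone, since age did not vary within proestrus or estrus. In both stages replicate 1 was 90 days old, and replicates 2 and 3 were 91 days old in metestrus and 92 in diestrus. The slope therefore rests on few animals and cannot part age from stage in the 6 libraries.

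Genes whose products carry out the activity response did not lean one way. Of 20 such genes, 18 passed the filter and Dusp5 and Ptgs2 did not, and the log2 difference was above 0 in 10 and below 0 in 8, with a median of 0.02. Dusp1, a phosphatase that turns off MAP kinases, was at 12.8, 14.0 and 12.3 CPM in proestrus and at 20.2, 20.9 and 20.5 CPM in estrus. Both groups were tight and did not overlap, and the log2 difference of 0.68 had a voom interval of 0.35 to 1.04 (unadjusted p = 0.00112, adjusted p = 1, edgeR). Arc, a postsynaptic protein made near active synapses, was at 10.4, 12.8 and 12.5 CPM in proestrus and at 17.4, 13.2 and 32.0 CPM in estrus, a log2 difference of 0.66 (unadjusted p = 0.0133, edgeR). Its highest value was in estrus replicate 3, the library with the highest striatal, cortical and hippocampal neuron markers. Sik1, a kinase that restrains CREB coactivators, had a log2 difference of 0.59 (unadjusted p = 0.0088, edgeR), with 23.8 to 45.2 CPM in proestrus and 42.6 to 53.2 CPM in estrus.

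A pair of growth-related members lay the other way. Nrn1, a membrane-bound neurite growth factor, was at 30.2, 25.3 and 26.5 CPM in proestrus and at 10.6, 18.9 and 23.8 CPM in estrus, a log2 difference of -0.70 (unadjusted p = 0.00538, edgeR). Bdnf, the brain-derived neurotrophic factor, was at 22.8, 20.2 and 26.3 CPM in proestrus and at 9.57, 16.2 and 22.2 CPM in estrus, a log2 difference of -0.65 (unadjusted p = 0.00883, edgeR). Both were lowest in estrus replicate 1.

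Markers of mature oligodendrocytes and myelin all had higher mean levels in estrus. All 29 passed the filter and all 29 had a log2 difference above 0, with a median of 0.58 against -0.001 over all genes. At an unadjusted p under 0.05, 19 were higher in estrus, against 2.11% of all genes. All estrus libraries lay above all proestrus libraries in 14, against 4.41% of all genes. None passed the adjusted test by edgeR. This list too was chosen with earlier results of these data known, so the shares are descriptive. The summed level of the 29 genes was 3460 to 4805 CPM in proestrus and 4932 to 7769 CPM in estrus. These genes are made by the same cells and move together from library to library, so the 29 differences carry much less than 29 independent observations. In whole tissue, more cells of a type and more RNA per cell cannot be told apart.

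Mbp encodes myelin basic protein, which compacts the myelin sheath. It stood at 1650, 1244 and 1145 CPM in proestrus and at 1810, 2493 and 2819 CPM in estrus, a log2 difference of 0.82 (unadjusted p = 0.0102, edgeR). Proestrus replicate 1 and estrus replicate 1 were close together, and the distance between the stages came from the other 4 libraries.

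Mag, a myelin glycoprotein that faces the axon, was at 106, 79.0 and 75.7 CPM in proestrus and at 115, 146 and 183 CPM in estrus, a log2 difference of 0.75 (unadjusted p = 0.00552, edgeR). Trf, the iron carrier transferrin, which oligodendrocytes make in the brain (chr9:103204001-103230444, GRCm38), was at 138, 123 and 108 CPM in proestrus and at 163, 227 and 309 CPM in estrus, a log2 difference of 0.91 with a voom interval of 0.32 to 1.39 (unadjusted p = 0.00289, adjusted p = 1, edgeR). Fa2h, which hydroxylates the fatty acids of myelin lipids, had 18.9 to 29.0 CPM in proestrus and 31.9 to 54.2 CPM in estrus. The 3 genes shared one order, with the highest value in estrus replicate 3 and the lowest in a proestrus library.

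The member with the largest difference was Klk6, a secreted protease of oligodendrocytes, at chr7:43824499-43832030 in GRCm38. It was at 0.69, 0 and 1.34 CPM in proestrus and at 5.32, 6.73 and 8.21 CPM in estrus, a log2 difference of 2.85 (unadjusted p = 0.00236, adjusted p = 1, edgeR). Before TMM scaling, 3 counts come to 0.588, 1.02 and 0.363 CPM in proestrus replicates 1 to 3. Few reads therefore lie behind the proestrus level, and the size of the difference is uncertain. In the other stages Klk6 ranged from 0.53 to 5.68 CPM in metestrus and from 0.31 to 7.55 CPM in diestrus. Anln, an actin-binding septum protein that also sits in myelin, was at 17.1, 10.5 and 10.6 CPM in proestrus and at 24.5, 35.6 and 29.5 CPM in estrus, a log2 difference of 1.23 (unadjusted p = 0.0135, edgeR). At the other end, Mog, a glycoprotein of the outer sheath, was at 33.5, 27.6 and 20.6 CPM in proestrus and at 31.2, 47.6 and 39.4 CPM in estrus, and its groups overlapped (log2 difference 0.57, unadjusted p = 0.057, edgeR).

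**Figure D2:**
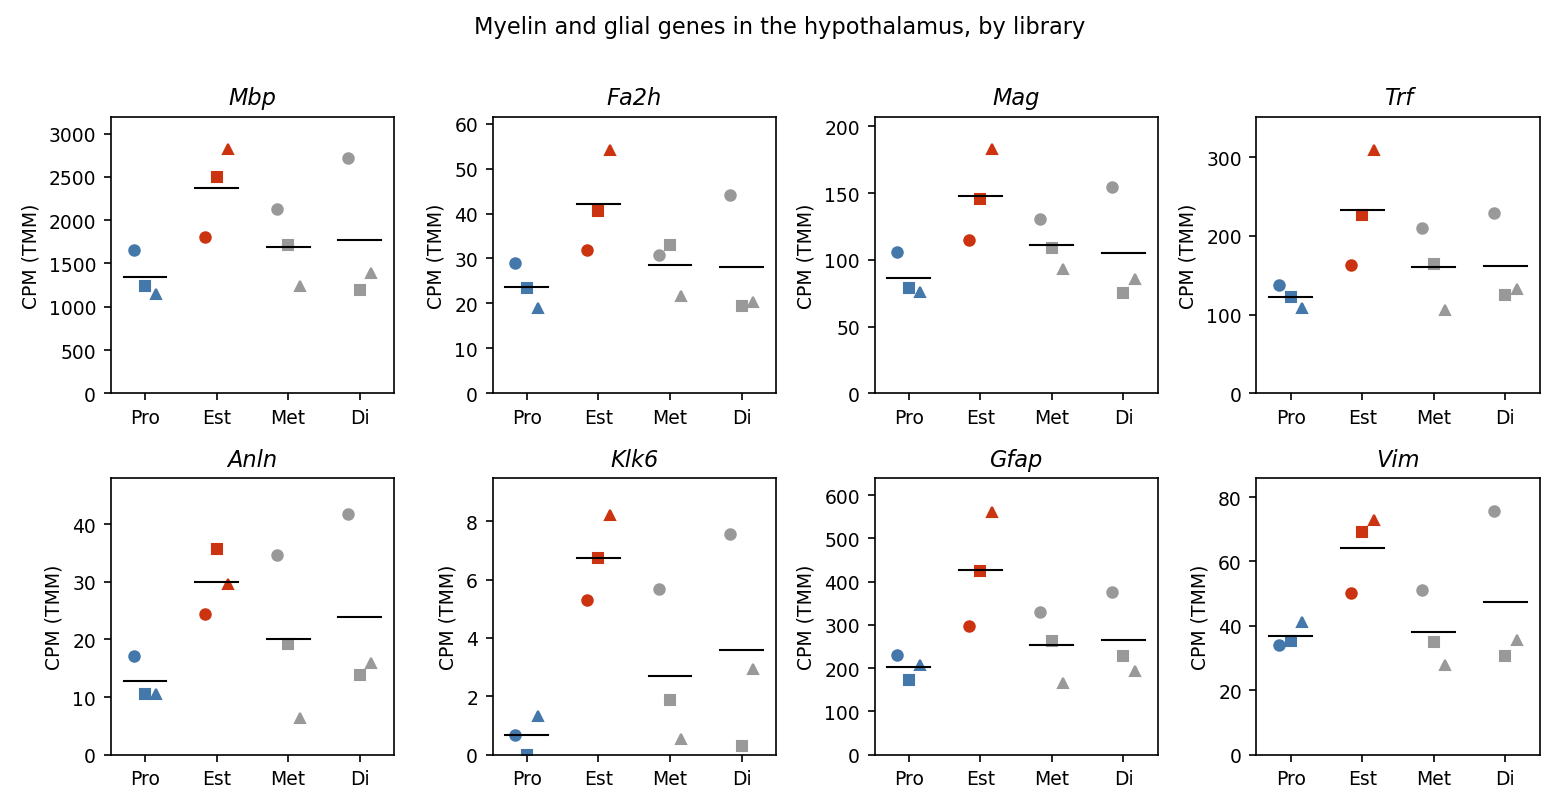
Levels of 6 oligodendrocyte genes and of the glial filament genes Gfap and Vim in each hypothalamus library, in CPM after TMM scaling on axes from 0, by stage. Circles, squares and triangles are replicates 1, 2 and 3 and black lines are means of 3 libraries; in all 8 panels the red estrus points lie above the blue proestrus points, and diestrus replicate 1 (grey circle) lies within or above the range of the estrus points.

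The spread within the other stages covered nearly the whole distance between these groups. The centred mean log2 level of the 29 genes was -0.03, -0.40 and -0.45 in proestrus and 0.00, 0.49 and 0.60 in estrus, but 0.35, 0.07 and -0.45 in metestrus and 0.51, -0.42 and -0.26 in diestrus. With age as a covariate, whose slope rests on metestrus and diestrus alone, the median log2 difference was 0.20. In that fit 1 member had an unadjusted p under 0.05. Without estrus replicate 3 and proestrus replicate 3, added after the data were seen, that count was also 1, with a median of 0.41. Without proestrus replicate 3 alone the count was 4 and the median 0.47. The median stayed between 0.47 and 0.79 when 1 library was left out. Leaving out estrus replicate 2 or estrus replicate 3 gave 11 and 10 members, and dropping estrus replicate 3 with metestrus replicate 3, the libraries richest in Lars2, gave 12. Estrus replicate 3 held the highest level of Mbp, Mag and Trf and also the striatal, cortical and hippocampal neuron markers given above. The part of neighbouring tissue in these differences was not tested.

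Markers of earlier cells of the lineage had smaller medians. Of 7 precursor markers, 6 had a log2 difference above 0, with a median of 0.15, and none had an unadjusted p under 0.05. Pdgfra, the receptor that defines the precursors, was at 61.6, 61.9 and 63.1 CPM in proestrus and at 59.9, 64.8 and 64.0 CPM in estrus. Of 6 markers of committed precursors, 5 were above 0 with a median of 0.18. At an unadjusted p under 0.05, 2 were higher, against 2.11% of all genes. These were Bcas1 and Enpp6. Bcas1, which marks cells starting to myelinate, had a log2 difference of 0.68 (77.3 to 109 CPM in proestrus and 107 to 189 CPM in estrus), and Enpp6 had 1.39 (1.17 to 3.80 CPM and 2.48 to 11.7 CPM). The 22 genes of cholesterol synthesis, which supplies myelin membrane, had 11 differences above 0 and 11 below, with a median of -0.002.

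The same contrast of stages in the other 3 regions gave smaller differences for most myelin genes. No gene was called in the test of the hypothalamus against those regions, and no calls were made within each of them. The estrus minus proestrus difference in the hypothalamus was set against the mean of the same difference in the hippocampus, neocortex and cerebellum, with edgeR over 18152 genes. It called 0% of them, and the smallest adjusted p was 0.194, for Emid1. At an unadjusted p under 0.05, the hypothalamus difference was the higher in 2.33% of genes and the lower in 2.75%. Of the 29 myelin genes, 22 were among the higher and 0 among the lower. Their median difference between stages was -0.12 for hippocampus, 0.10 for neocortex and -0.05 for cerebellum. Per the protocols all 4 regions were dissected from each animal, and the test treats their libraries as independent. It also takes 1 spread per gene over the libraries of all 4 regions. Its p-values therefore do not measure the spread within the hypothalamus alone, and they are not comparable with those of the hypothalamus fit. With a block for stage and replicate number shared by the regions, 0 genes were called and 22 of the 29 were higher at that p. For Mbp the hypothalamus exceeded the other regions by 0.84 on the log2 scale (unadjusted p = 0.000451, adjusted p = 0.495, edgeR). Of the 21 activity factor genes, 3 were among the higher, namely Nr4a1, Fosl2 and Egr1. The median over those 21 was 0.14, -0.22 and 0.08 in the hippocampus, neocortex and cerebellum.

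Astrocyte genes were divided in direction, and the filament gene Gfap had one of the smallest p values of all genes. Of 15 astrocyte markers, 8 had a log2 difference above 0 and 7 below, with a median of 0.04. At an unadjusted p under 0.05, 3 were higher, against 2.11% of all genes, and 0 lower, against 1.67%. Gfap encodes the intermediate filament of reactive and fibrous astrocytes (chr11:102887336-102900912, GRCm38). It was at 230, 172 and 208 CPM in proestrus and at 297, 424 and 561 CPM in estrus, a log2 difference of 1.06, or 2.08-fold, with a voom interval of 0.45 to 1.54 (unadjusted p = 0.000996, adjusted p = 1, edgeR). All estrus libraries were above all proestrus libraries, yet diestrus replicate 1 reached 375 CPM. Against the other regions, with the spread taken over all regions, Gfap differed by 1.05 on the log2 scale (unadjusted p = 2.24e-05, adjusted p = 0.203, edgeR). With the block it differed by 1.01 (unadjusted p = 1.72e-05, adjusted p = 0.188, edgeR). Without estrus replicate 1, that adjusted p was 0.0226 for Gfap (log2 difference 1.25) and 0.0398 for Trf (1.10), and without estrus replicate 2 it was 0.00376 for Reln alone (0.94). Sox9, a glial transcription factor, was at 64.0, 64.2 and 53.5 CPM in proestrus and at 79.7, 70.7 and 84.5 CPM in estrus (log2 difference 0.37, unadjusted p = 0.0194, edgeR).

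Cells that line the ventricle were uneven. Of 10 tanycyte markers, 9 passed the filter and Adm did not, 6 were above 0 and 3 below, and the median was 0.36. At an unadjusted p under 0.05, 3 of the 9 were higher, against 2.11% of all genes, and 0 lower, against 1.67%. Vim, the filament of tanycytes and of other glia, was at 34.0, 35.4 and 41.1 CPM in proestrus and at 50.3, 69.3 and 73.0 CPM in estrus (log2 difference 0.77, unadjusted p = 0.0136, edgeR). Rax, the factor that defines tanycytes, had the lowest difference of the list. Of 12 ependymal markers, 10 passed the filter, and 8 of these were above 0 with a median of 0.48. At that p, 3 of the 10 were higher, against 2.11% of all genes. The highest ependymal level was in estrus replicate 1, where Hydin, a protein of motile cilia, reached 33.3 CPM against 13.5 and 8.21 CPM in the other estrus libraries and 5.45 to 9.65 CPM in proestrus. Without that library the median was 0.24, and in other regions it was 0.46 (hippocampus), 0.76 (neocortex) and -0.10 (cerebellum).

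**Figure D3:**
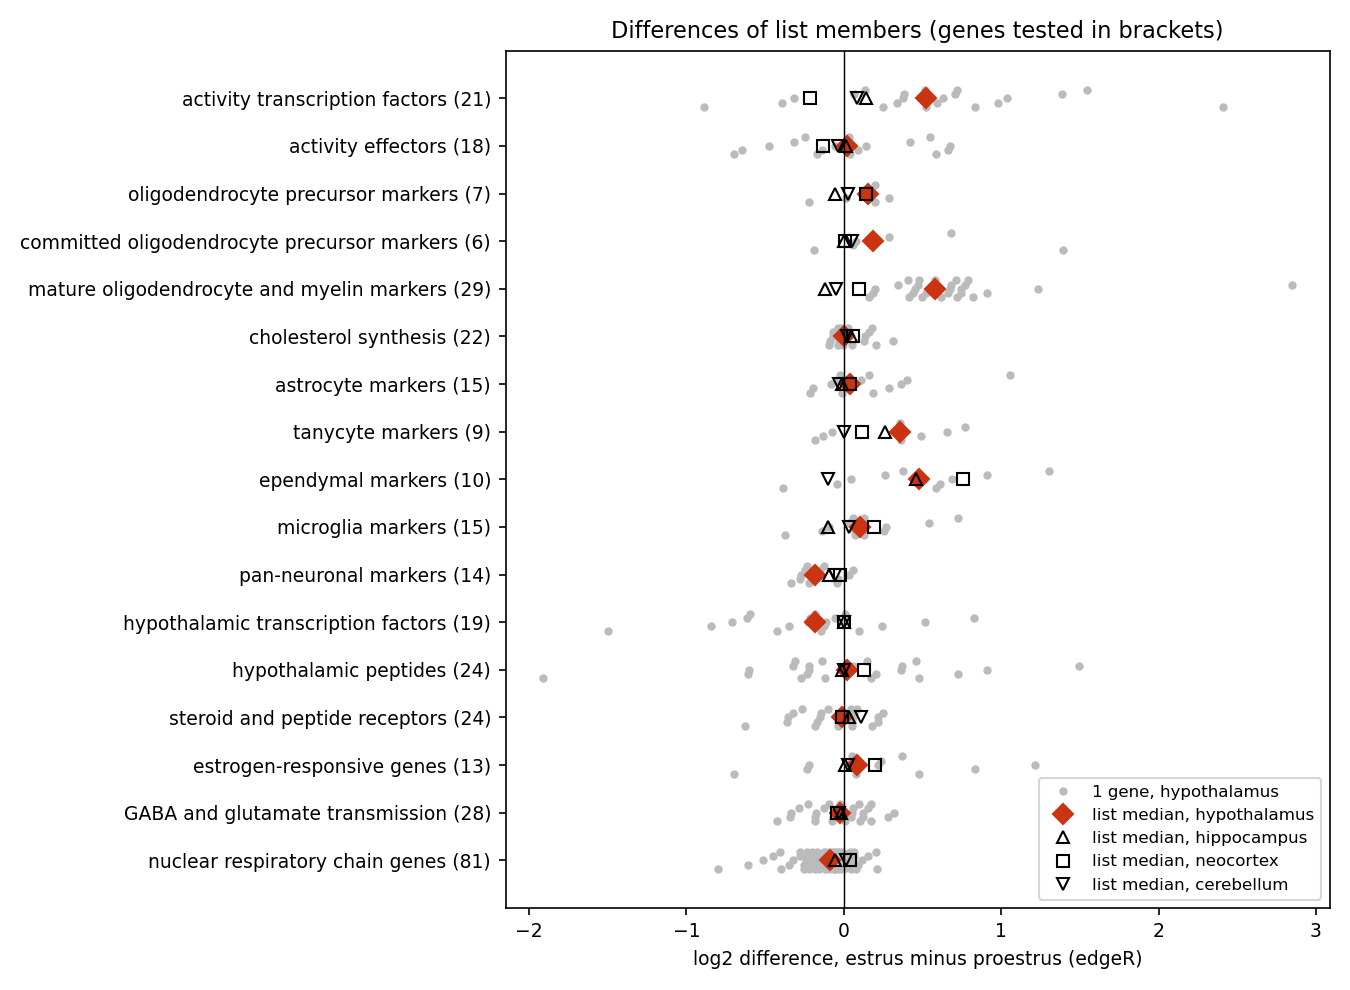
Log2 difference, estrus minus proestrus by edgeR, for the members of 17 gene lists (grey points, hypothalamus) and the median of each list in the hypothalamus (red diamonds) and in the hippocampus, neocortex and cerebellum (open triangles up, squares and triangles down). The myelin genes all lie right of 0 with a median of 0.58, while their medians in the other 3 regions lie between -0.12 and 0.10.

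Most general neuronal markers had slightly lower levels in the estrus libraries. Of 14 pan-neuronal markers, 12 had a log2 difference below 0, with a median of -0.18. All estrus libraries lay below all proestrus libraries in 3, against 5.28% of all genes. Elavl4, an RNA-binding protein of neurons, was at 75.3, 79.8 and 71.9 CPM in proestrus and at 64.1, 65.0 and 44.3 CPM in estrus (log2 difference -0.34, unadjusted p = 0.0399, edgeR). Snap25, a synaptic vesicle fusion protein, was at 639, 678 and 596 CPM in proestrus and at 443, 580 and 563 CPM in estrus (log2 difference -0.27, unadjusted p = 0.0471, edgeR). The lowest Snap25 level was in estrus replicate 1, and without that library the median of the 14 markers was -0.06. CPM values are shares of a library, so the levels of neuronal and glial genes are not independent of each other. Genes of the nuclear-encoded respiratory chain lay the same way, with 65 of 81 tested below 0 and a median of -0.09. Neither list separated the stages library by library. The centred mean log2 level of the respiratory chain genes was 0.11, 0.04 and 0.04 in proestrus and -0.20, -0.04 and 0.14 in estrus. That of the pan-neuronal markers was 0.13, 0.09 and 0.03 in proestrus and -0.22, -0.08 and 0.06 in estrus.

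Genes of inhibitory and excitatory transmission had a median of -0.03, with 13 of 28 tested above 0 and 15 below. In estrus 4 were lower at an unadjusted p under 0.05, against 1.67% of all genes, and 0 were higher, against 2.11%. Gabrb2 encodes a GABA-A receptor subunit and stood at 96.3, 105 and 83.7 CPM in proestrus and at 68.4, 77.0 and 79.6 CPM in estrus (log2 difference -0.34, unadjusted p = 0.0051, edgeR). Slc17a6, the vesicular glutamate transporter VGLUT2 used by hypothalamic glutamate neurons, was at 218, 225 and 222 CPM in proestrus and at 126, 188 and 182 CPM in estrus (log2 difference -0.43, unadjusted p = 0.00906, edgeR). Proestrus was tight in Slc17a6, and estrus replicate 1 was far below the other estrus libraries.

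Transcription factors that pattern the hypothalamus also leaned lower. All 19 passed the filter, 14 had a log2 difference below 0 and 5 above, and the median was -0.19. At an unadjusted p under 0.05, 5 of the 19 were lower, against 1.67% of all genes, and 1 was higher, against 2.11%. Lhx1, a factor of the suprachiasmatic nucleus and mammillary region, was at 25.0, 24.5 and 20.3 CPM in proestrus and at 10.3, 16.4 and 15.6 CPM in estrus (log2 difference -0.71, unadjusted p = 0.00415, edgeR). Foxb1, a factor of the mammillary body, was at 34.7, 30.8 and 40.6 CPM in proestrus and at 7.44, 27.4 and 26.3 CPM in estrus (log2 difference -0.85, unadjusted p = 0.0317, edgeR). Both genes were lowest in estrus replicate 1, and metestrus replicate 1 was nearly as low, at 14.2 and 10.9 CPM.

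Sim1, which builds the paraventricular nucleus, was at 18.3, 22.6 and 17.5 CPM in proestrus and at 15.6, 12.0 and 16.4 CPM in estrus (log2 difference -0.42, unadjusted p = 0.0265, edgeR). The largest negative difference was that of Lmx1b, a factor of the posterior hypothalamus, at -1.50 (unadjusted p = 0.0126, edgeR). Six3, a factor of the anterior hypothalamus, was the one member with an unadjusted p under 0.05 that was higher, at 41.9, 45.2 and 36.3 CPM in proestrus and 74.8, 50.1 and 46.8 CPM in estrus (log2 difference 0.52, unadjusted p = 0.00743, edgeR). Of the 6 libraries, estrus replicate 1 was the lowest for Lhx1 and Foxb1 and the highest for Six3. The part of the dissection in these differences was not tested. Without estrus replicate 3 and proestrus replicate 3 the median of the 19 was -0.07.

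**Figure D4:**
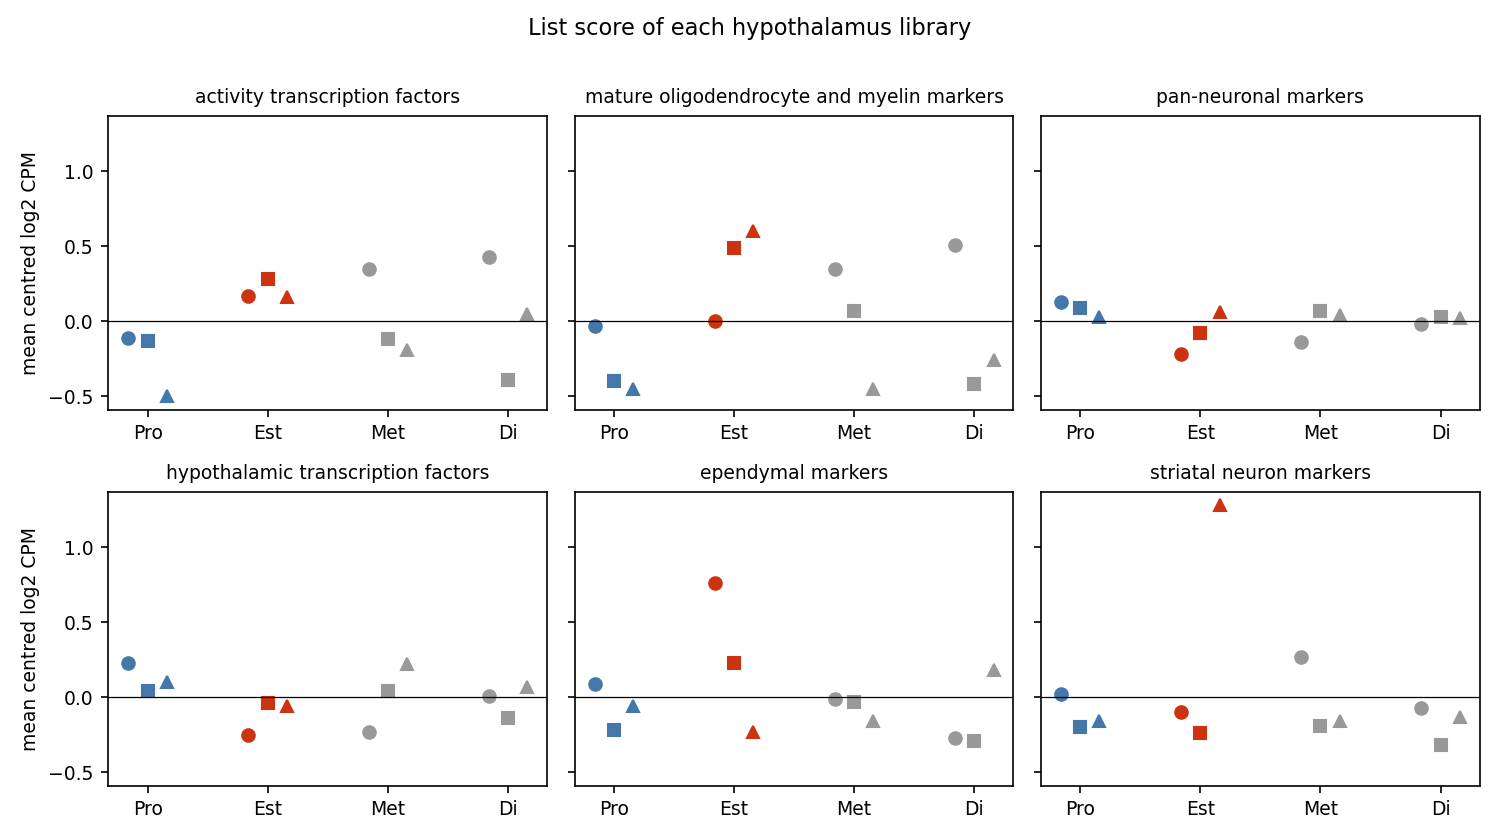
Mean centred log2 CPM of 6 gene lists in each of the 12 hypothalamus libraries, by stage; each point is 1 library, with circles, squares and triangles for replicates 1, 2 and 3, blue for proestrus and red for estrus. Estrus replicate 3 (red triangle) stands alone at 1.28 for striatal markers, and estrus replicate 1 (red circle) is highest for ependymal markers at 0.76 and lowest for hypothalamic transcription factors at -0.25.

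Neuropeptide genes divided evenly. Of 28, 24 passed the filter, 13 had a log2 difference above 0 and 11 below, and the median was 0.02. The genes that did not pass were Gnrh1, Crh, Ucn3 and Nms. For Gnrh1, the releasing hormone of the reproductive axis, the 3 proestrus libraries held 1, 0 and 1 counts and the 3 estrus libraries 3, 1 and 1, at or below the floor of 3 counts a library, so no ratio is given. The depth here does not show whether that gene differs, and its few neurons lie partly outside the dissected hypothalamus.

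Oxt encodes oxytocin, made by magnocellular and parvocellular neurons of the paraventricular and supraoptic nuclei. It was at 84.6, 87.2 and 96.2 CPM in proestrus and at 197, 109 and 139 CPM in estrus, a log2 difference of 0.72 (unadjusted p = 0.00963, adjusted p = 1, edgeR). Avp, which encodes vasopressin in neighbouring neurons of the same nuclei, was at 206, 181 and 201 CPM in proestrus and at 234, 250 and 280 CPM in estrus (log2 difference 0.37, unadjusted p = 0.0647, edgeR). Neither gene's groups overlapped, but diestrus replicate 1 reached 142 CPM of Oxt and 260 CPM of Avp. With age as a covariate, whose slope rests on metestrus and diestrus alone, the difference of Avp was -0.03.

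A pair of lateral hypothalamic peptides had lower means in estrus. Hcrt, which encodes the wake-promoting orexins, was at 63.2, 33.9 and 8.83 CPM in proestrus and at 3.54, 11.2 and 14.8 CPM in estrus (log2 difference -1.91, unadjusted p = 0.0119, edgeR). The proestrus libraries were far apart, and the lowest of them lay below estrus replicates 2 and 3. Pmch, melanin-concentrating hormone, was at 262, 258 and 167 CPM in proestrus and at 89.3, 181 and 181 CPM in estrus (log2 difference -0.61, unadjusted p = 0.0269, edgeR). These neurons occupy a small territory, and estrus replicate 1 was the lowest library for both.

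The arcuate feeding and reproductive peptides overlapped in all but 1 gene. Pomc, the precursor of melanocortins, was at 49.7, 40.5 and 65.7 CPM in proestrus and at 62.0, 66.3 and 43.5 CPM in estrus. Npy was at 16.9 to 32.1 CPM in proestrus and 18.2 to 30.4 CPM in estrus, and Agrp at 3.50 to 8.52 CPM and 2.46 to 4.96 CPM. Tac2, which encodes neurokinin B of the arcuate neurons that drive the reproductive axis, was at 11.6, 13.2 and 16.6 CPM in proestrus and at 11.3, 11.2 and 11.5 CPM in estrus. Its estrus values lay just below its proestrus values, and its log2 difference of -0.31 had a voom interval of -0.87 to 0.25.

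Receptors for steroids and peptides showed no lean. Of 25, 24 passed the filter and Esr2 did not, 12 were above 0 and 12 below, the median was -0.01, and none had an unadjusted p under 0.05. Esr1, estrogen receptor alpha, was at 24.2, 31.5 and 24.3 CPM in proestrus and at 30.1, 23.9 and 24.6 CPM in estrus. Its log2 difference of 0.01 had a voom interval of -0.37 to 0.45, so larger differences lie outside it. Pgr, the progesterone receptor, which estradiol induces in rodents, was at 21.9, 27.3 and 19.3 CPM in proestrus and at 41.5, 15.2 and 20.5 CPM in estrus. One estrus library was the highest of the 6 for Pgr and another was the lowest, and the log2 difference was 0.22 with all libraries and -0.39 without estrus replicate 1. Among 13 genes known to respond to estrogen in the hypothalamus, 10 were above 0 and 3 below with a median of 0.08. At an unadjusted p under 0.05, 1 of the 13 was higher, against 2.11% of all genes, and 0 were lower, against 1.67%. That member was Cckar, a receptor for cholecystokinin, at 4.42 to 5.84 CPM in proestrus and 5.73 to 12.4 CPM in estrus. All estrus libraries lay below all proestrus libraries in 1 of the 13, against 5.28% of all genes, and above them in 0, against 4.41%. The lowest log2 difference of the list was -0.70.

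**Figure D5:**
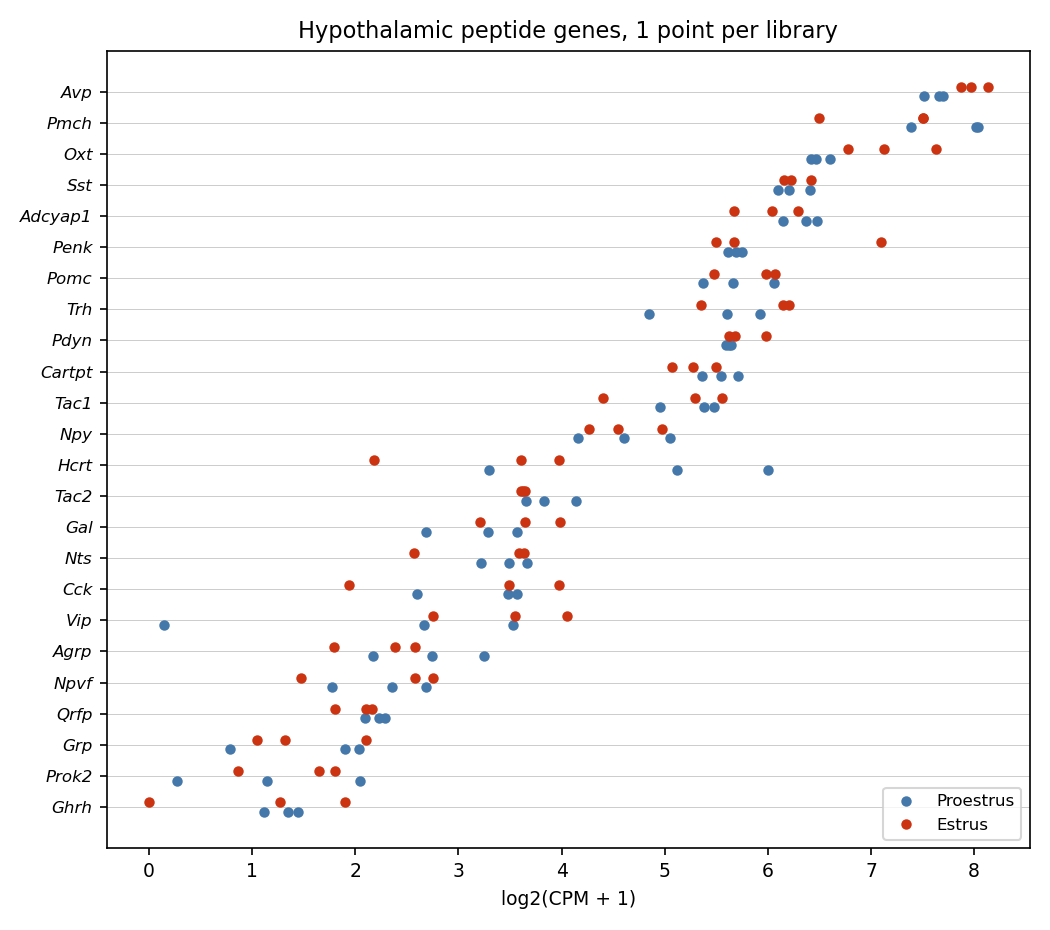
Levels of 24 peptide genes in the 3 proestrus (blue) and 3 estrus (red) hypothalamus libraries, as log2 of CPM plus 1, with genes ordered by mean level. The 2 colours interleave in most rows; the red points of Oxt and Avp lie right of the blue points, and those of Hcrt spread from 3.54 to 14.8 CPM against 8.83 to 63.2 CPM.

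The genes named singly had the smallest p values among those whose groups did not overlap. S1pr3, a receptor for sphingosine 1-phosphate found on astrocytes and vessels (chr13:51408639-51422797, GRCm38), was at 11.9, 10.1 and 12.2 CPM in proestrus and at 23.0, 18.7 and 18.1 CPM in estrus. Its log2 difference was 0.79 with a voom interval of 0.41 to 1.13, the smallest unadjusted p of all genes (0.000454, edgeR) and an adjusted p of 1. Metestrus and diestrus libraries held 10.5 to 15.1 CPM of it, closer to proestrus than to estrus. Itgb4, an integrin subunit, was at 8.29, 5.06 and 8.52 CPM in proestrus and at 14.5, 19.7 and 15.6 CPM in estrus (log2 difference 1.13, unadjusted p = 0.00286, edgeR). The other genes of the 10 highest with groups that did not overlap were Ado, an oxygenase of cysteamine, Spata13, Gpr137b, Pacs2 and Stk32a, with log2 differences of 0.40 to 0.61, beside Gfap, Dusp1 and Trf given above.

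In the other direction, March1, a membrane-bound ubiquitin ligase, was at 35.6, 42.0 and 41.8 CPM in proestrus and at 24.1, 31.4 and 25.4 CPM in estrus (log2 difference -0.53, unadjusted p = 0.00121, adjusted p = 1, edgeR). Tmem196, a membrane protein at chr12:119945822-120021246 in GRCm38, was at 14.2, 18.7 and 16.5 CPM in proestrus and at 6.02, 8.72 and 7.39 CPM in estrus (log2 difference -1.11, unadjusted p = 0.00288, edgeR). Metestrus replicate 1 was as low as estrus, at 6.43 CPM, and metestrus replicate 3 as high as proestrus, at 16.9 CPM. Several others are neuronal, among them Elavl2, an RNA-binding protein of neurons, at 83.4 to 109 CPM in proestrus and 63.8 to 78.0 CPM in estrus, and Serpini1, a protease inhibitor secreted by neurons, at 104 to 117 CPM and 71.9 to 96.9 CPM. The remaining 6 of the 10 lowest, Bend6, Eif5a2, Ank1, Ilf2, Plk5 and Plcb4, had log2 differences of -1.20 to -0.38.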

How the data were processed

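The authors deposited one table of raw counts for each region, with 37315 Ensembl genes and no normalization. Per the submitters' processing notes, reads passed through Trimmomatic 0.32, TopHat2 2.0.8 and SAMtools, the notes also list Cufflinks 2.1.1 and DESeq 1.12.1, and the builds are GRCm38 and mm10. Neither the counting program nor its annotation is stated in the sources used here. Per the labels' protocols, hypothalamus libraries were made with a NEBNext Ultra kit and spike-in RNA was added. GENCODE M21 gave symbols and coordinates for 35533 genes, and sequences came from RefSeq (GRCm38.p6).

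Stage was fitted over the 12 hypothalamus libraries with the quasi-likelihood test of edgeR 4.0.16 in R 4.3.3, using TMM scaling and the filterByExpr minimum by stage. All p-values of a fit were adjusted together (Benjamini-Hochberg, threshold 0.05). Intervals (95%) came from limma 3.58.1 voom, whose estimates can differ from those of edgeR. The test against the other regions used all 47 libraries, with a coefficient for each region and stage; libraries of 1 stage and number have the same age in every region and may share an animal, which the replicate block allows for. Both fits were run on counts simulated from their own estimated spread with planted changes, as a check of the code. Those counts model neither the outlying estrus replicate 3 nor animals shared between regions. Centred list levels are means of log2 CPM (prior count 2). An exact permutation test of 3 against 3 libraries cannot give a p below 0.1, so none was run. The p-values measure only the spread between these samples.

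Members and lists were chosen with earlier results of these data known. The rule for named genes takes, in each direction, the 10 genes of smallest p with a mean of at least 5 CPM and groups without overlap, up to 5 members of each list, and a set of hormone, receptor, activity and myelin genes. Genes outside it, such as Anln, Fosb, Egr2, Rax and Reln, were named after their values were seen. Other analyses used DESeq2 1.42.0, voom with quality weights, RLE factors, no minimum count, a minimum mean of 1 CPM, the 6 libraries alone, a replicate block, age as a covariate, protein-coding genes without Lars2, thinned libraries, and each library left out. No label pairs a proestrus animal with an estrus animal of the same number. Libraries of the same number did not deviate together (r of -0.009, -0.235 and -0.198). Deviations from means of 3 libraries cannot decide whether the numbers pair animals. Floors cover counting error only: duplicate reads of one molecule cannot be recognised.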

Additional observations from a re-analysis of the deposited data

How the results depend on the processing

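The count of 0 called genes held in 17 of 18 other analyses. Without a filter on low counts, 24237 genes entered the fit, 88 were called (73 higher and 15 lower in estrus), and 82 of them also passed the filter of the main analysis, where 51 had an unadjusted p under 0.05. The prior degrees of freedom that edgeR estimated for the spread between libraries were 144 in that fit and 8.11 with the filter, so each gene's own spread counted for less; why the 2 fits differ was not tested further. Against 88 of 24237 genes in all, the calls held 11 of 29 myelin markers, 3 of 22 activity transcription factor genes and 4 of 28 peptide genes. They also held 5 small noncoding RNAs and 2 of 13 striatal neuron markers. The committed precursor, astrocyte, tanycyte, ependymal, cortical and hippocampal, hypothalamic transcription factor and estrogen-responsive lists had 1 called member each. The 88 included 24 of the 77 genes followed through all analyses. At an unadjusted p under 0.05 that fit gave 604 genes higher and 410 lower, DESeq2 gave 120 lower, and leaving out 1 library gave 251 to 468 higher and 167 to 493 lower. With the replicate block, 0 genes were called, 311 were higher and 270 lower, although no label pairs animals of different stages by number. Against the other regions, leaving out 1 library called 0 to 2 genes.

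The median log2 difference of the activity transcription factors was 0.32 with age as a covariate, 0.36 with libraries thinned to the smallest total and 0.36 without estrus replicate 3 and proestrus replicate 3, and 0.40 to 0.70 when 1 library was left out. Their members at an unadjusted p under 0.05 were 5 with DESeq2, 5 after thinning, 4 without that pair of libraries, 1 with age as a covariate, and 1 to 8 when 1 library was left out. For the activity effectors, age as a covariate gave a median of -0.15. For the myelin markers it gave 0.20 and 1 member at that p. The age slope of these fits rests on metestrus and diestrus alone. Myelin members at that p were 1 without the same pair of libraries, 12 without the 2 libraries richest in Lars2, and 4 to 25 when 1 library was left out. The myelin median was 0.407 without that pair and 0.474 to 0.787 when 1 library was left out. The range when 1 library was left out was -0.215 to -0.062 for the pan-neuronal median and -0.14 to 0.12 for the peptide median. The median of the hypothalamic transcription factors was -0.071 without estrus replicate 3 and proestrus replicate 3. The cause was not tested.

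Of 1382 values of named genes under these analyses, 1370 kept their direction. The exceptions were Ppp1r1b (-0.26 without estrus replicate 3 and proestrus replicate 3, -0.34 without estrus replicate 3, -0.33 without the 2 libraries richest in Lars2), Avp (-0.027 with age), Esr1 (-0.23 thinned, -0.005 with the replicate block, -0.026 without estrus replicate 3 and proestrus replicate 3, -0.11, -0.05 and -0.05 without estrus replicate 1, proestrus replicate 1 and proestrus replicate 3) and Pgr (-0.086 with voom quality weights, -0.39 without estrus replicate 1). When 1 library was left out, Ppp1r1b ranged from -0.34 to 1.76 and Pgr from -0.39 to 0.58. In the shallowest library, with 1826368 counts, 3 counts came to 2.46 CPM after scaling, so differences of genes near that level could not be detected at this depth.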

Other observations

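The following lists had no member with an unadjusted p under 0.05 by edgeR. Microglia markers had 12 of 15 tested log2 differences above 0 with a median of 0.11, and endothelial and pericyte markers 14 of 17 below 0 with a median of -0.15. Clock genes had a median of 0.04, glucocorticoid-responsive genes -0.10, heat shock and cold-inducible genes 0.07 and interferon-stimulated genes 0.09. Cytosolic ribosomal protein genes stood at 0.01 and mitochondrially encoded genes at -0.02.

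Meningeal and fibroblast markers, which reflect the membranes around the brain, had a summed level of 317 to 505 CPM in proestrus and of 227 to 662 CPM in estrus. Blood cell markers summed to 115 to 187 CPM in proestrus and 68.4 to 360 CPM in estrus. The pituitary hormone genes Prl and Gh, at 0 in all 6 libraries compared, were at 9.72, 12.9 and 41.1 CPM and at 2.84, 4.00 and 24.3 CPM in the 3 metestrus libraries of the hypothalamus and at 0 in diestrus.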
